A study of Mus musculus with 20 samples.

Results

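The mammalian mitochondrial ribosome translates the few proteins that the mitochondrial genome encodes, all of them core subunits of the oxidative phosphorylation complexes. Its ribosomal RNAs come from mitochondrial DNA, but its proteins come from nuclear genes whose mRNAs are translated on cytosolic ribosomes and whose products are imported. Some of these proteins have bacterial homologues and others were added during the evolution of mitochondria, and inherited defects in several of them cause combined oxidative phosphorylation deficiency. The genes for these proteins were taken here by symbol, as every gene of the total and polysomal count table named Mrpl or Mrps followed by a digit, for the large and the small subunit, with 2 pseudogenes left out. The rule gave 76 of 14924 genes, 47 of them named Mrpl and 29 named Mrps, and it used no measured value. All 76 were among the 14906 genes that passed the filter on low counts, 60 had counts in the 3′ end libraries, and 5 were listed with a HuD binding site. The symbols do not follow the subunits exactly, since Mrps30 and Mrps18a encode proteins of the large subunit and the product of Mrps36 is also described as a subunit of the 2-oxoglutarate dehydrogenase complex. In the groups by subunit and ancestry below, Mrps30 was counted with the large subunit and Mrps18a, by its symbol, with the small subunit.

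The cells were NSC-34, a mouse hybrid line of neuroblastoma and motor neuron-enriched embryonic spinal cord cells that is used as a motor neuron model. HuD (ELAVL4) is a neuronal RNA-binding protein of the ELAV family that binds U-rich stretches, mostly in 3′ UTRs. The HuD cells carried a His-HA-tagged human HuD transgene under a tetracycline-inducible promoter and were induced for 48 h with 2 µg/ml tetracycline. Total RNA and RNA from polysomes, the mRNAs loaded with several ribosomes, were sequenced in 2 control and 2 HuD replicates each, and mRNA 3′ ends in 3 control and 3 HuD replicates. The labels call these biological replicates, and they do not say whether these control cells received tetracycline. HuD binding sites came from CRAC, in which UV-crosslinked RNA is purified with the tagged protein and read as cDNA, in 3 HuD libraries and 3 control libraries of cells with the Trex background alone, all given 10 µg/ml tetracycline for 24 h. These inducers, doses and times are those of the labels. The study's text names doxycycline in some places, and for CRAC it also gives another dose and time. The CRAC replicates had been pooled, so its values have no replicate error. In bulk RNA, fewer cells and less RNA per cell cannot be told apart.

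Total counts were 21296012 to 36284728 in the total and polysomal libraries, of which the 76 genes took 0.667% to 0.736%, and 12986862 to 15751036 in the 3′ end libraries, of which the 60 genes took 0.679% to 0.741%. The 3′ end totals and shares sum all listed ends, so reads near 2 close ends can be in them more than once. Elavl4, the mouse HuD gene, had 78.3 and 97.4 CPM (counts scaled to library size) in total RNA of control cells. In HuD cells it had 237 and 212 CPM, with both HuD libraries above both controls. Whether reads of the human transgene are among these counts is not given. A change of the mouse gene's own mRNA therefore cannot be read from them. The 3′ ends of Elavl4 had 78.1, 38.5 and 78.1 CPM in control and 54.6, 31.4 and 52.4 CPM in HuD cells. These are ends of the mouse gene, and whether the human transgene shares them is not given in the sources used here, so they do not check the labels of those libraries. Of 13 motor neuron and neuron markers 12 were in the table, and without Elavl4 they summed to 2518 to 2702 CPM in control and 2600 to 2680 CPM in HuD total and polysomal libraries. Mnx1 was the marker not in the table, and Chat, the enzyme of acetylcholine synthesis, was near the floor, with a mean of 0.524 CPM in total RNA of control cells. Of 10 markers of glia, immune, endothelial and connective tissue cells 4 were in the table, with summed levels of 12.3 to 16.4 CPM in control and 11.8 to 15.6 CPM in HuD libraries. The 2 polysomal libraries of control cells differed most: the coefficient of variation between replicates had a median over the 76 genes of 7.44% in polysomal control cells, against 3.47% in control total RNA, 4.33% in HuD total RNA and 3.57% in HuD polysomal RNA. This value cannot say which of the 2 stands apart. The polysomal library of control replicate 2 had the fewest counts, 21296012, and its ratios to total RNA spread more widely, as given below. Results that rest on this library are given with and without it. By the annotation, exons of 31 of the 76 genes overlap those of another gene, in 24 of them on the opposite strand only, and their counts are less certain where reads were not told apart.

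The HuD sites in these genes are shown first, because they are the only places where the protein was mapped to their mRNAs. Each of the 6 windows is printed as RNA from Gencode vM21 transcripts (GRCm38) with 11 nt on either side, and the capitals mark the 7 nt window that the CRAC table lists, which had to be moved by 1 nt on the plus strand or 2 nt on the minus strand for the listed letters to match the transcript.
Mrps14 (chr1:160199767-160199773, plus): ucauugaauugUCUUUCAacuuuaaagca
Mrps5 (chr2:127603972-127603978, plus): aaauaauuauaGAUUUGUcuuacagagca
Mrps33 distal (chr6:39802243-39802249, minus): auaaugaccuuGGUUUUGuaaucugaagc
Mrps33 proximal (chr6:39802316-39802322, minus): cccuguguucaCGUUUUAcuucaguuaag
Mrpl17 (chr7:105809450-105809456, minus): cacacagugccAGUUUGCuuugguuuugu
Mrpl32 (chr13:14611505-14611511, minus): uuuagauaguaUCUUUUGgauggcagcuc
All 6 windows hold 3 or more U in a row. The authors kept only windows above a motif score, and the core of their HuD logo holds 3 U, so this was largely fixed by that choice. The windows of Mrps14, Mrps5, Mrps33 and Mrpl17 lie in 3′ UTRs, between 116 and 400 nt after the stop codon. The window of Mrpl32 was listed as coding, and in the transcript that holds it, which the annotation gives as a target of nonsense-mediated decay, it lies 81 nt after the stop codon.

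Promoters of nuclear genes for mitochondrial proteins are known for binding sites of NRF1, of the ETS family factor GABP (NRF2) and of YY1. RefSeq promoters (GRCm38.p6, 250 nt before to 50 nt after the start) were at hand for 67 of the 76 genes, and each was searched on both strands for the NRF1 motif, for the ETS letters CCGGAAG and for the YY1 motif, whose letters the capitals below give, with 1 free base in the middle of the NRF1 motif. The end of the ETS letters and the start of the YY1 motif can overlap, and a promoter with the NRF1 letters on both strands was counted once. The NRF1 motif was in 13 of 67 promoters (19.4%), against 11.4% of promoters of protein coding genes with counts and 5.19% of all promoters of the table, and 9.68% for cytosolic ribosomal proteins and 25.8% for nuclear oxidative phosphorylation genes. CCGGAAG was in 24 (35.8%, against 19.6% and 9.93%), and the YY1 motif in 5 (7.46%, against 2.31% and 0.995%). For the cytosolic ribosomal and oxidative phosphorylation genes these shares were 40.3% and 24.2% (ETS) and 4.84% and 7.58% (YY1). These shares are a description and were not tested, and a match is not a bound site. 36 promoters held at least 1 of the 3, and the following examples show each motif in capitals with its flanks, on the strand that reads as the motif.
Mrpl12, NRF1 (chr11:120484556-120484565): cggtgcgacGCGCAGGCGCggagacaat
Mrpl30, NRF1 (chr1:37890394-37890403): tagaagacaGCGCAGGCGCagcggcgtc
Mrpl33, ETS (chr5:31613948-31613954): gcgcatgccCCGGAAGtagtcgttg
Mrps18a, ETS (chr17:46110978-46110984): acccctgctCCGGAAGcggaagtgc
Mrps18a, YY1 (chr17:46111015-46111024): gtgcgttccAAGATGGCGGccctcaggg
Mrps27, YY1 (chr13:99344800-99344809): gtgcgctccAAGATGGCGGctcccatgg
Mrpl12 and Mrpl30, which hold the NRF1 letters, were among the 5 genes with the highest levels, but the 13 genes with this match had a median level of 30.4, against 62.5 for the genes without it, in the length-scaled unit explained next.

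Levels were compared between genes per length, as CPM per kilobase of the main coding transcript (FPKM), in total RNA of control cells (n = 2, mean ± SD). The 76 genes spanned a 125-fold range. Mrpl30, a large subunit protein with a bacterial homologue (chromosome 1), stood highest at 822 and 781 FPKM in the 2 replicates (801 ± 29.5), 2.91 times the next gene. Then came Mrpl42 (275 ± 26.3), Mrpl20 (265 ± 4.8), Mrpl12 (262 ± 2.93) and Mrpl54 (219 ± 34.4), all of the large subunit, of which the first 3 do not differ beyond their spread. MRPL12 also binds the mitochondrial RNA polymerase. At the low end were Mrps16 (10.4 ± 0.486), Mrpl1 (9.11 ± 0.399), Mrpl19 (8.81 ± 0.444), Mrpl32 (8.10 ± 0.114) and Mrps25 (6.43 ± 0.0999), where Mrpl1 and Mrpl19 overlap. Mrps16 and Mrps25 are among 11 genes of the set that were listed here by hand for human mutations that cause oxidative phosphorylation deficiency. The list need not hold every such gene, and its median, 60.0 FPKM, was close to that of the whole set. The order depends on which length is used: with all exons of a gene joined, 3 of the 5 highest and 3 of the 5 lowest genes were shared, Mrpl42 came 25th rather than 2nd, and Mrpl30 came 3rd at 146 FPKM, with Mrpl12 highest at 225.

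**Figure D1:**
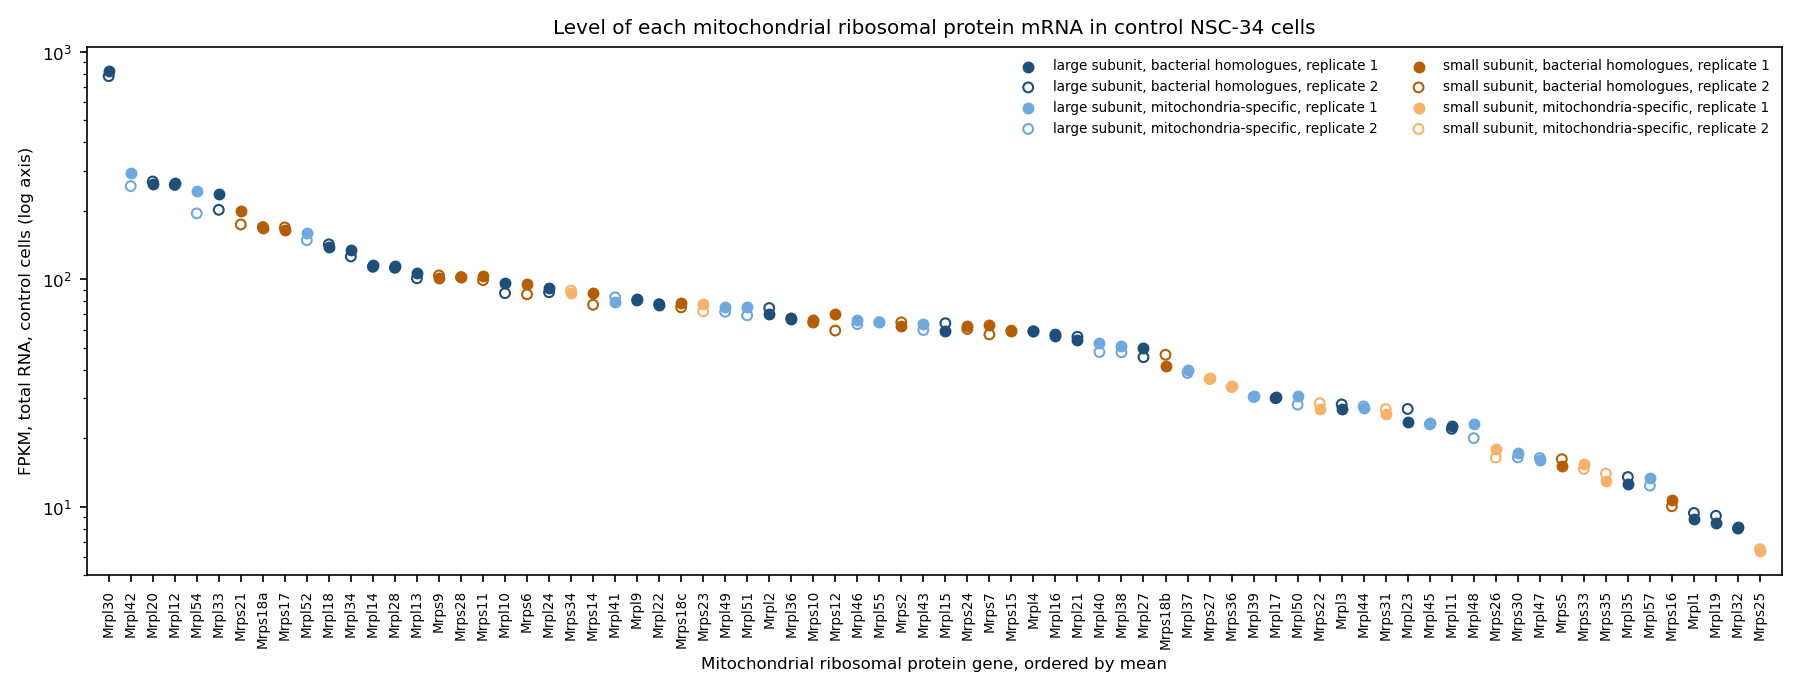
Level of each of the 76 mRNAs in total RNA of control NSC-34 cells. The vertical log axis is FPKM, genes are ordered by their mean, filled and open points are replicates 1 and 2, and colours give the subunit and ancestry group; Mrpl30 stands above all others at 822 and 781 FPKM, and Mrps25 is lowest with a mean of 6.43 FPKM.

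The median of the set was 61.6 FPKM, with quartiles of 27.4 and 90.9. Large subunit proteins with bacterial homologues had a median of 69.8 FPKM (28 genes) and those specific to mitochondria 49.7 (20 genes). Genes of the small subunit group with bacterial homologues, which holds Mrps18a, had 71.2 (18 genes), and those specific to mitochondria had 27.0 (10 genes). The median mRNA was 5.42 times that of protein coding genes with counts (11.3 FPKM), but it was far below those of the other ribosome and of the complexes that mitochondrial translation feeds: cytosolic ribosomal protein mRNAs had a median of 1003 FPKM, 16.3 times higher (82 genes), and the 83 nuclear genes of oxidative phosphorylation 264 FPKM, 4.29 times higher. The mRNAs were also short. Their median transcript was 1251.5 nt with a coding length of 582 nt and a 3′ UTR of 322.5 nt, against 2789, 1383 and 829 nt over protein coding genes and 705, 454.5 and 57.5 nt for cytosolic ribosomal proteins. The 3 S18 paralogues, which are thought to take alternative or separate places in the mitochondrial ribosome, were present together: Mrps18a at 167 and 170 FPKM, Mrps18c at 78.8 and 75.2, and Mrps18b at 41.6 and 46.5, in an order that was the same in both replicates.

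The first comparison asked which mRNAs sit on polysomes more or less than their total level would give, in control cells. None of the 76 genes passed an adjusted p of 0.05 in edgeR's quasi-likelihood test, nor in DESeq2, and over all genes tested 0.174% passed, all 26 of them lower on polysomes. The difference between polysomal and total RNA had a median of −0.02 (log2) over the set and 0.01 over all genes. At an unadjusted p under 0.05, 1 gene was higher, where 4.45% of all genes were, and 2 were lower, where 6.25% were. Mrpl3, a large subunit protein, had 106 and 112 CPM in total and 120 and 134 CPM in polysomal RNA, and its groups did not overlap (log2 difference 0.22 ± 0.09 SE, adjusted p = 0.462). Mrps24 (ENSMUSG00000020477, chromosome 11, minus strand), a small subunit protein, had 61.7 and 60.1 CPM in total RNA and 55.1 and 32.5 CPM on polysomes (−0.47 ± 0.19, adjusted p = 0.462). Mrps21, also of the small subunit, had 81.2 and 70.5 CPM in total and 69.0 and 45.3 CPM in polysomal RNA (−0.40 ± 0.16). In both, the low polysomal value was that of control replicate 2. The exons of Mrps24 share 226 nt with Urgcp on the same strand, and those of Mrpl3 248 nt with Gm38077, so the counts of both are less certain. Without overlap between the groups, 15 genes were higher on polysomes (18.9% of all genes) and 12 were lower (20.1%), which is close to the background on each side.

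How the 2 control pairs differed is plain from the single ratios. In control replicate 1 the polysomal to total ratio of the 76 genes had an SD over genes of 0.0867 (log2) and lay beyond 0.3 in either direction for 0 genes. In control replicate 2 the SD was 0.263 and 17 genes lay beyond 0.3, with Mrps24 lowest at −0.89. In HuD replicates 1 and 2 the SD was 0.131 and 0.126, with 3 and 2 genes beyond 0.3. The wide spread of control replicate 2 went with coding length: across the 76 genes its ratio correlated with log2 coding length at r = 0.565, against 0.372 in control replicate 1 and 0.183 and 0.364 in HuD replicates 1 and 2. Genes are not independent replicates and share library, depth and annotation, so these are descriptions. The 13 genes with coding sequences under 400 nt had a median ratio of −0.30 in control replicate 2, against −0.03, 0.06 and −0.07 in the other pairs, and over all 648 protein coding genes of that length the median in that pair was −0.31. Without the polysomal library of control replicate 1, 16 of the 76 genes passed, 3 higher (Mrpl3, Mrpl47 and Mrps31) and 13 lower (among them Mrps24, Mrps21, Mrpl33, Mrpl52, Mrpl54 and Mrpl57), where 6.67% and 7.70% of all genes passed in these directions, against 0.174% with all libraries. Without that of control replicate 2, 0 passed and 0 had an unadjusted p under 0.05.

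**Figure D2:**
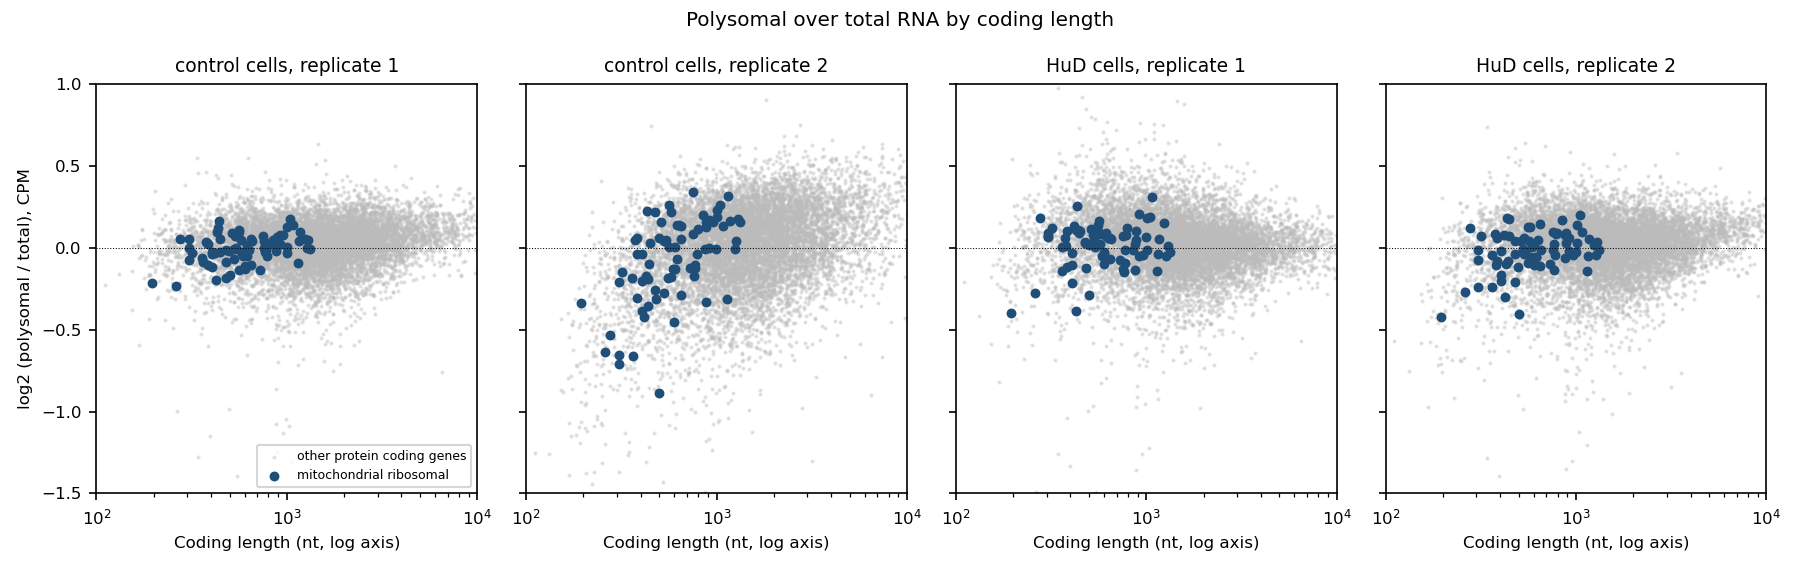
Ratio of polysomal to total RNA (log2 of CPM, vertical) against coding length (nt, log axis) in each same-numbered pair of libraries, with the 76 genes in blue and other protein coding genes of at least 8 CPM in total RNA in grey. Up to 58 other genes of a panel lie outside the axes; the blue points fall away at short coding lengths in control replicate 2, where r was 0.565, more than in the other 3 pairs.

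In HuD cells, in a comparison added after the data were seen, 0 of the 76 genes passed on polysomes against total RNA by edgeR or by DESeq2, where 0.537% of all genes did by edgeR. The 2 lower genes at an unadjusted p under 0.05 (7.59% of all genes) are of the large subunit and had steady values in both pairs. Mrpl33, one of the smallest proteins of the set with a coding length of 195 nt, had 100 CPM in both total libraries and 75.9 and 74.9 CPM on polysomes (−0.41 ± 0.12, adjusted p = 0.214). In control cells it had 113 and 96.5 CPM in total and 97.1 and 76.5 CPM in polysomal RNA (−0.27 ± 0.12). The exons of Mrpl33 share 261 nt with Gm43809 on the same strand, so its counts are less certain. Mrpl42 had 163 and 177 CPM in total RNA and 124 and 144 CPM on polysomes (−0.34 ± 0.11, adjusted p = 0.256). Mrpl33 was the lowest gene of the set in both HuD pairs, at −0.40 and −0.42, and with either control polysomal library left out it passed together with Mrps24, where 1.89% and 1.92% of all genes passed as lower without replicate 1 and without replicate 2. Mrpl3 was again higher, by 0.20 ± 0.09, the 1 gene on that side (4.85% of all genes). Groups did not overlap in 17 genes higher (25.3% of all genes) and 14 lower (24.5%).

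Among cytosolic ribosomal proteins, 80 of 82 mRNAs were lower on polysomes in control cells, 6 of them past the threshold, with a median of −0.22, and in HuD cells 75 were lower with a median of −0.18. The mitochondrial set was split in direction, with 33 higher and 43 lower in control and 41 higher and 35 lower in HuD cells. The difference between the sets was not tested.

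Whether induction of HuD changed the level of these mRNAs was asked in total RNA. None of the 76 passed, by edgeR or DESeq2, and none had an unadjusted p under 0.05, where 0% and 2.64% of all genes did. Even so 65 of the 76 were lower in HuD cells, by a median of −0.05 (log2), with −0.00 over all genes. Groups that did not overlap were found in 26 genes on the lower side (16.7% of all genes) and in 0 on the higher side (15.1%). The 5 non-overlapping genes with the smallest p were Mrpl27, Mrpl1, Mrpl22, Mrps27 and Mrpl17. Mrpl27, a large subunit protein with a bacterial homologue, had 37.7 and 34.3 CPM in control and 33.4 and 30.3 CPM in HuD cells (−0.18 ± 0.10, adjusted p = 1.00). Mrpl1 had 30.3 and 32.2 against 26 and 29.3 CPM (−0.17 ± 0.11). Neither difference passed the test against the spread between replicates.

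The same-numbered pairs differed. Between the libraries numbered 1, 72 of 76 genes were lower in HuD cells with a median of −0.12, and between those numbered 2, 39 were lower and 37 higher with a median of −0.00. Cytosolic ribosomal protein and oxidative phosphorylation genes did likewise, with medians of −0.12 and −0.14 in the first pair and of 0.02 and −0.03 in the second. Without the HuD library of replicate 1 the median of the set was −0.02 and 28 of 76 genes were higher, and without that of replicate 2 the median was −0.11 and 4 were higher. By ancestry, 26 of 28 large subunit genes with bacterial homologues were lower (median −0.09), 18 of 20 specific to mitochondria (−0.04), and 14 of 18 and 7 of 10 in the small subunit groups, the first with Mrps18a (−0.05 and −0.04).

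**Figure D3:**
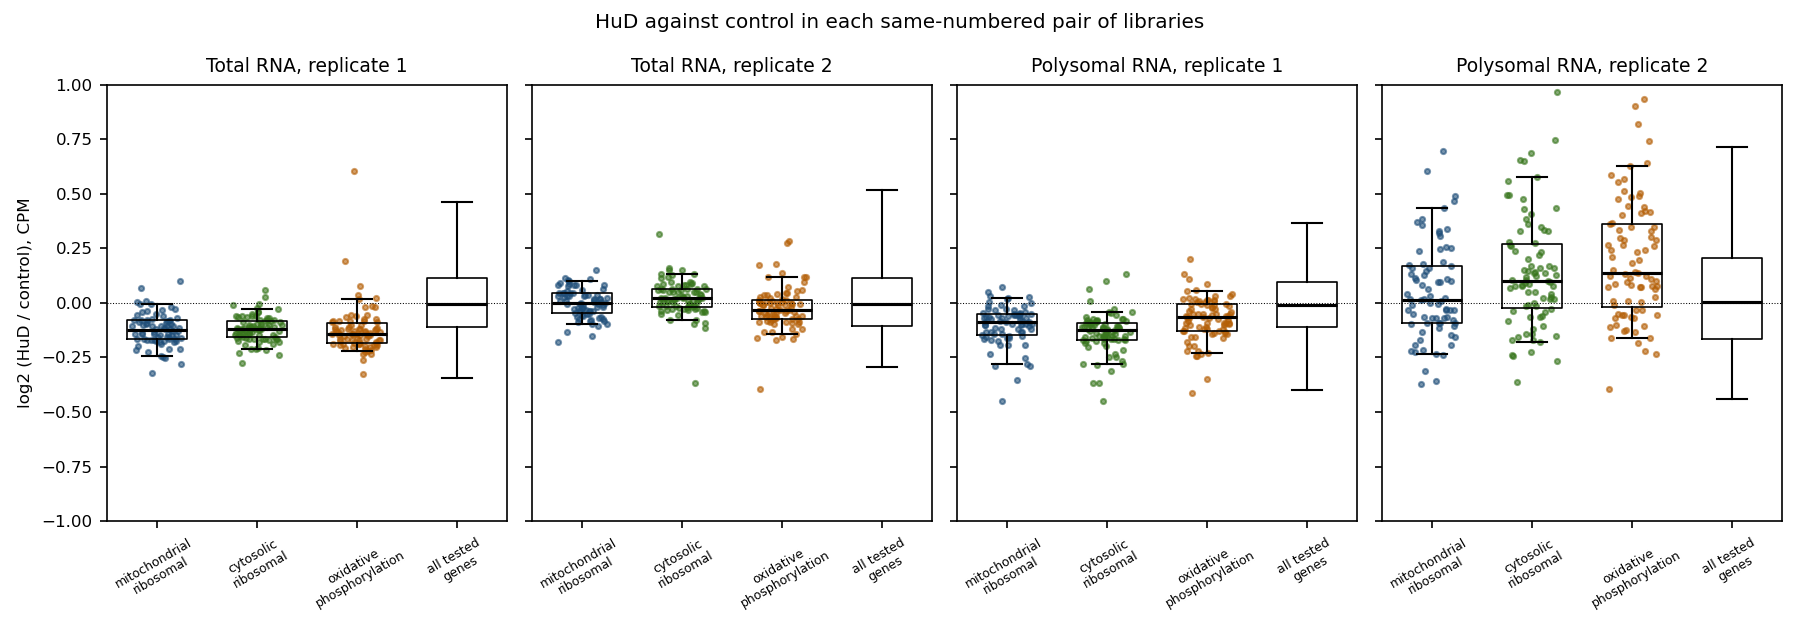
Log2 ratio of HuD to control CPM in each same-numbered pair of total or polysomal libraries, for the 76 genes, 82 cytosolic ribosomal protein genes, 83 nuclear oxidative phosphorylation genes and all tested genes. Points are genes and are drawn for every group but that of all tested genes, which has a box alone. Boxes span the quartiles with the median, and whiskers reach the 5th and 95th percentiles. The mitochondrial set lies below 0 in the first pair (medians −0.12 and −0.09) and around 0 in the second (−0.00 and 0.02).

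In polysomal RNA 0 of 76 genes passed by either tool (0% of all genes by edgeR), with 31 higher and 45 lower in HuD cells and a median of −0.03. At an unadjusted p under 0.05, 3 genes were lower and 0 higher, where 1.89% and 2.29% of all genes were. These 3, Mrpl47, Mrpl42 and Mrpl45, encode large subunit proteins, and Mrpl45 is counted among those at the exit of the peptide tunnel. Mrpl47 had 55.8 and 69.8 CPM on polysomes of control cells and 46.8 and 53.9 CPM in HuD cells, so the groups did not overlap (−0.32 ± 0.12, adjusted p = 0.969). Its total RNA had 54.2 and 55.1 against 51.2 and 54.4 CPM (−0.05 ± 0.12). Mrpl42 had 170 and 150 against 124 and 144 CPM (−0.26 ± 0.11), and Mrpl45 had 57.8 and 62.9 against 50.6 and 55.1 CPM (−0.19 ± 0.08). For Mrpl47, 1068 nt of exons overlap Actl6a and Ndufb5 on the other strand. With replicate number as a block 6 genes were lower at this unadjusted level (4.98% of all genes) and 0 passed. Groups did not overlap in 2 genes on the higher side (14.1% of all genes), Mrps23 and Mrpl44, and in 18 on the lower (14.6%).

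The set's median and direction moved with single polysomal libraries: without that of control replicate 2 the median was −0.05 with 15 genes higher, without control replicate 1 it was −0.006 with 38 higher, and without HuD replicate 1 it was −0.0043 with 36 higher. The calls moved with the polysomal control libraries too. Without that of replicate 1, 5 genes passed: Mrpl34, Mrpl52, Mrpl57 and Mrps24 higher in HuD cells, where 1.71% of all genes passed, and Mrpl47 lower at −0.47, where 0.784% did. In each of the first 4 the polysomal level of control replicate 2 was well below that of replicate 1. Mrpl57 had 40.1 and 21.8 CPM on control polysomes, the widest gap between replicates in the set, and 37.8 and 35.2 CPM on HuD polysomes. Without control replicate 2, 0 genes passed, and 5 were lower at an unadjusted p under 0.05.

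Translation efficiency (TE), the polysomal to total ratio, was compared between HuD and control cells as an interaction in the same fit. None of the 76 genes passed, in edgeR or DESeq2, and none had an unadjusted p under 0.05, where 0% and 0.979% of all genes did. The median change in TE was 0.02 (log2), with −0.01 over all genes, and 43 genes were higher and 33 lower. Ratios of same-numbered libraries did not overlap in 17 genes with higher TE (18.6% of all genes) and 10 with lower TE (20.0%). The largest fitted changes in each direction were those of Mrpl34, at 0.35 ± 0.25, and of Mrpl47, at −0.27 ± 0.16, each with an adjusted p of 1.00. Mrpl34 had 81.9 and 76.4 CPM in total and 85.1 and 52.8 CPM in polysomal RNA of control cells, and 70.1 and 73.8 against 79.6 and 80.3 CPM in HuD cells. Its change rested on the polysomal library of control replicate 2: without it the value was 0.05, and without control replicate 1 it was 0.74 and passed (adjusted p = 0.0391), as did Mrpl57, where 0.315% of all genes passed as higher. The sign of the median also turned, to −0.02, without the total library of HuD replicate 1.

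The 3′ end libraries gave a separate measure of level for 60 of the 76 genes. A gene's value sums its listed ends, and reads near 2 close ends can enter at each, which raises genes with such ends. By these sums the highest were Mrpl33 (943 ± 49.9 CPM in control, n = 3), Mrps6 (602 ± 40.9) and Mrps9 (578 ± 44.2). The order depends on this: in control replicate 1 Mrps6, with 1 end, had 8802 counts, and Mrpl33 had 6944 at its most counted end. Mrps9 had 4456 and 4590 at ends on neighbouring bases, below the 6650 at the main end of Mrpl30. The least were Mrps31 (1.25 ± 0.251), Mrps7 (1.38 ± 0.254) and Mrpl11 (1.74 ± 0.387). Only reads starting near known polyadenylation sites had been counted, so ends away from those sites are not in these values. Across the 60 genes log2 of the summed 3′ end CPM and log2 FPKM had r = 0.464. This r was 0.184 with all exons joined as the length and 0.304 with CPM of total RNA. None of the 60 passed between HuD and control by edgeR or DESeq2, where 0.0520% of all genes did by edgeR. With only the most counted end of each gene 0 passed, and over all genes 2 higher and 3 lower ones did. The median change was −0.02 (log2), with 0.00 over all genes and 27 of 60 genes higher. Its sign rested on single libraries: it was −0.06 with 20 genes higher without control replicate 1, 0.027 with 36 higher without control replicate 2, and 0.0033 with 31 higher without HuD replicate 1.

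3 genes were lower at an unadjusted p under 0.05, with 3.00% of all genes on that side, and 0 were higher (2.87%). Mrps6 (ENSMUSG00000039680, chromosome 16, 92058270 to 92112227), a small subunit protein with a bacterial homologue, had 555, 622 and 629 CPM in control and 454, 500 and 492 CPM in HuD cells. All 3 HuD libraries lay below all 3 controls (−0.32 ± 0.11, adjusted p = 0.705), and with replicate number as a block Mrps6 passed (adjusted p = 0.0370), where 2.26% of all genes did. Its total RNA had 81.0 and 72.7 CPM in control and 73.1 and 75 CPM in HuD cells (−0.05 ± 0.09). Its exons share 464 nt on the same strand with Gm49711 and Slc5a3, summed over both. Mrpl13 had 116, 136 and 143 against 98.2, 102 and 112 CPM (−0.34 ± 0.13, adjusted p = 0.805), and its total RNA differed by −0.03 ± 0.08. Mrps14 had 139, 166 and 163 against 130, 127 and 127 CPM (−0.29 ± 0.12, adjusted p = 0.836), and its total RNA differed by −0.08 ± 0.10. The 3′ end and total RNA values come from separate libraries and their difference was not tested. Mrps23 was the 1 gene whose groups did not overlap on the higher side, with 52.5, 56.8 and 56.4 against 63.7, 57.4 and 68.7 CPM (0.20 ± 0.13). Groups did not overlap in 1 gene higher and 3 lower, where 6.23% and 5.81% of all genes did so. With control replicate 2, control replicate 3 or HuD replicate 1 left out, 0 of the 60 genes kept an unadjusted p under 0.05.

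**Figure D4:**
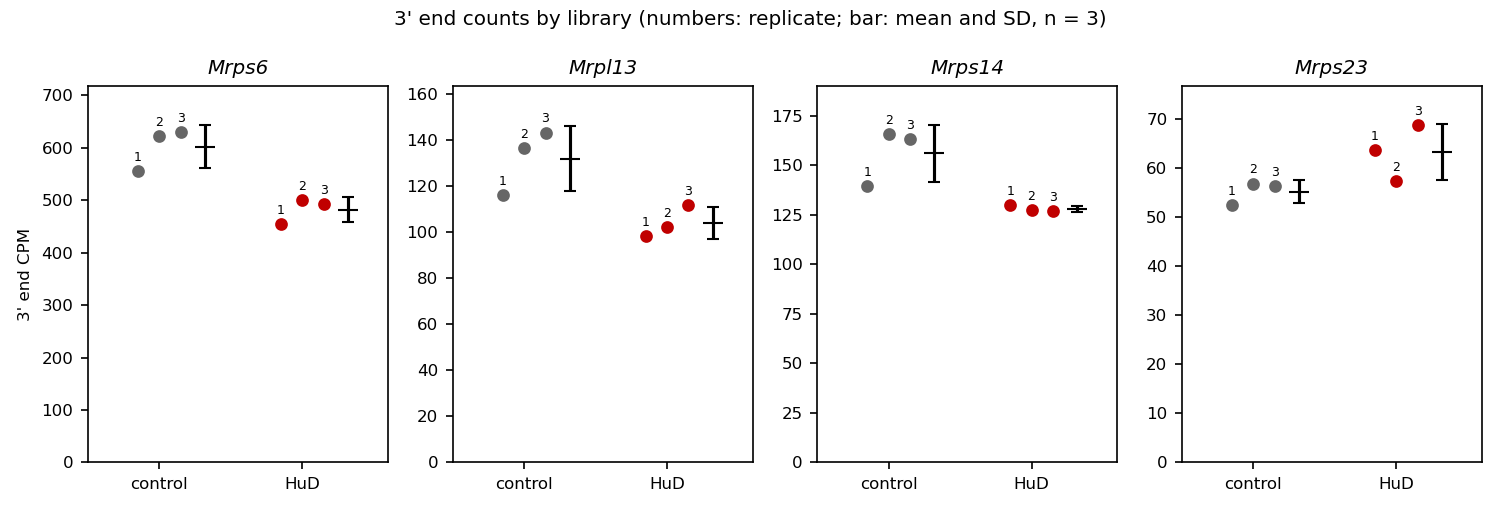
3′ end CPM in each library for the 4 genes whose control and HuD groups did not overlap. Grey points are control and red points HuD libraries, numbered by replicate, and the bar is the mean ± SD (n = 3); Mrps6, Mrpl13 and Mrps14 are lower in all 3 HuD libraries, Mrps23 is higher, and none passed the adjusted threshold without the replicate block.

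Use of alternative 3′ ends was tested in the 24 genes with 2 or more listed ends. None passed (0.0301% of genes tested), none had an unadjusted p under 0.05 (0.151%), and the smallest p was that of Mrps11 (unadjusted p = 0.204, edgeR). The 2 ends of Mrps11 lie close together, at positions 78792987 and 78792989. Only 10 genes had ends more than 20 nt apart. In the others close ends can count the same reads, so a change in use could hardly show. With ends within 20 nt merged, 0 of the 10 genes passed and 0 had an unadjusted p under 0.05. Over all 1434 genes so tested, 0 and 7 did. The smallest p of the 10 was that of Mrpl55 (unadjusted p = 0.927, edgeR). Mrps36 used its ends most evenly: of its 3′ end counts in control cells, 45.8% ± 3.70, 39.4% ± 2.72, 3.49% ± 0.697 and 11.3% ± 0.417 fell to 4 ends, from the distal to the proximal, against 46.3% ± 2.05, 40.5% ± 2.28, 3.46% ± 0.242 and 9.72% ± 0.443 in HuD cells (SD, n = 3). Mrpl55 used its proximal end for 82.8% ± 1.46 in control and 81.5% ± 2.09 in HuD cells. Mrps23 used its distal end for 85.1% ± 1.49 and 86.1% ± 2.28, and its proximal end for the rest. In Mrpl3 and Mrps34 the proximal end took 93.0% and 91.4% in control cells, where 763 nt of the exons of Mrps34 overlap Nme3 on the same strand, and in the other 5 genes the main end took at least 96.8%.

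In CRAC, 5 of the 76 genes (6.58%) were listed with a HuD site, where 9.90% of 12953 protein coding genes with counts were. The shares were 14.5% for the 83 oxidative phosphorylation genes and 26.8% for the 82 cytosolic ribosomal protein genes. The cytosolic set had 39 windows and a median coverage of 100 reads per listed gene, against 6 windows and 27 reads in the mitochondrial set. Over protein coding genes with counts this median was also 27 reads. Coverage was summed over the windows of a gene, so a read under close windows can enter more than once. These shares and medians were not tested. The listed sites had passed the authors' minimum of 3 deletions, the mark that a crosslink leaves in the cDNA, and 6 reads, with a motif score, after reads and deletions in the control libraries were weighed against them. Mrps33, a mitochondria-specific small subunit protein, had 46 reads with 4 deletions and 25 reads with 3 deletions in its windows, and 1 read in the pooled control at the first. It is the member with the most reads although its total RNA is low, at 17.0 and 16.2 CPM in control cells. Mrps14, whose human gene is linked to oxidative phosphorylation deficiency, had 42 reads with 5 deletions and no control read. Its window lies 50 nt before the end that takes 98.2% of its 3′ end counts. Mrps5 and Mrpl32 were at the minimum coverage of 6 reads, with 3 and 4 deletions.

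Mrpl17 differed from the others in its deletions. Of its 27 reads 25 carried a deletion (92.6%), where the median window had 26 reads, 5 deletions and 19.4%, and 103 of 2606 windows were at or above its share. It was also the 1 window of the set with a combined p under 0.05 in the authors' table (p = 0.0209, not adjusted). The window lies in the 3′ UTR of a transcript of 7300 nt, 227 nt downstream of the only 3′ end counted for it, at chromosome 7, position 105809680. Mrpl17 had 115, 190 and 131 CPM at that end in control and 130, 176 and 135 CPM in HuD cells (0.02 ± 0.20).

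**Figure D5:**
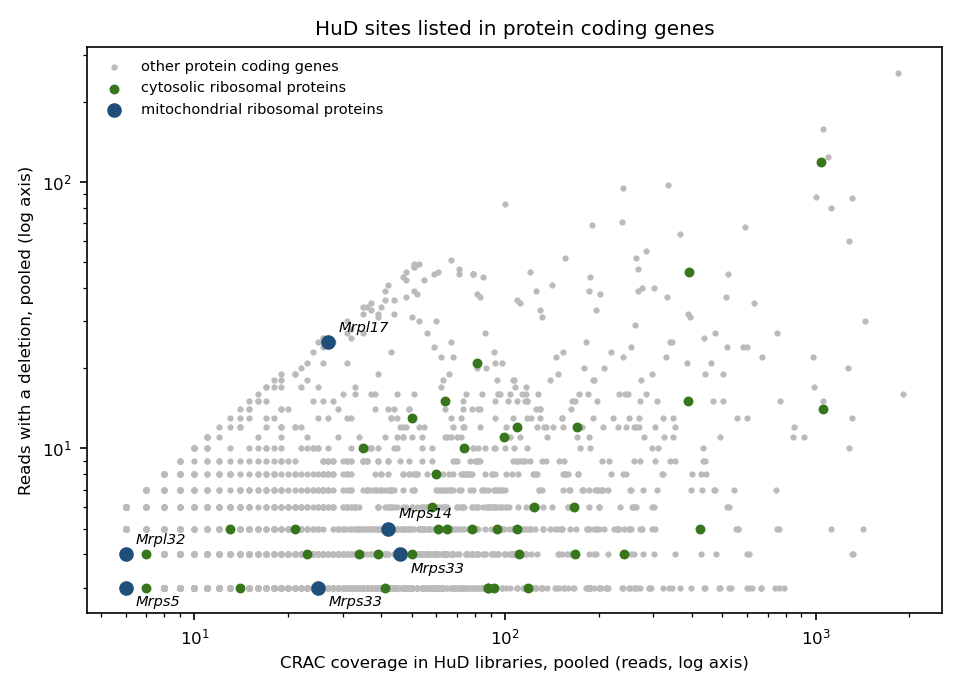
Reads with a deletion against read coverage (both log axes, pooled HuD CRAC libraries) for each of the 2606 windows listed in protein coding genes, with the 6 windows of the mitochondrial set in blue, cytosolic ribosomal proteins in green and other genes in grey. Mrpl17 lies near the upper edge with 25 of 27 reads, and Mrps5 and Mrpl32 at the lower left corner with 6 reads each.

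None of the 5 genes with a site passed in any comparison. Between HuD and control total RNA they differed by −0.08 ± 0.10 (Mrps14), −0.05 ± 0.13 (Mrpl32), −0.05 ± 0.09 (Mrps5), −0.14 ± 0.11 (Mrps33) and −0.15 ± 0.10 (Mrpl17). Their TE changes were 0.09 ± 0.14, −0.07 ± 0.18, −0.09 ± 0.13, 0.18 ± 0.15 and 0.17 ± 0.15 in the same order, and none had an unadjusted p under 0.05. In 3′ end counts Mrps14 alone of the 5 had an unadjusted p under 0.05. On polysomes it had 265 and 226 CPM in control and 248 and 243 CPM in HuD cells.

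The genes that work with the mitochondrial ribosome were read from lists kept apart from the 76. Of 6 mitochondrial ribosomal proteins under other symbols, 15 translation factors and 20 assembly and rRNA modification genes with counts, 0 passed in any of the comparisons in total, polysomal and 3′ end counts. Dap3, a GTP-binding small subunit protein, differed between HuD and control by −0.04 ± 0.09 in total and −0.11 ± 0.09 in polysomal RNA. Ptcd3, another small subunit protein, differed by 0.00 ± 0.11 and −0.20 ± 0.11. Tufm, the mitochondrial elongation factor Tu, differed by −0.13 ± 0.08 and −0.09 ± 0.08, Lrpprc, which stabilizes mitochondrial mRNAs, by 0.20 ± 0.12 and −0.01 ± 0.12, and Oxa1l, which inserts new proteins into the inner membrane, by 0.05 ± 0.08 and 0.10 ± 0.08. Gfm2, a factor for ribosome recycling, was the 1 gene of these lists with an unadjusted p under 0.05 in total RNA, at 0.24 ± 0.09 (adjusted p = 1.00). Among the 3 lists 1 gene had a CRAC site, Gtpbp10, an assembly GTPase.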

How the data were processed

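The authors aligned total and polysomal reads (TruSeq Stranded mRNA) with STAR 2.5.3a to GRCm38.p4 and deposited raw counts per Gencode M6 gene, with the strand column not stated. The submitters' processing notes also name TopHat2 2.0.14. The deposited 3′ end counts (QuantSeq REV) are reads starting near known polyadenylation sites. They were summed here per gene over all listed ends, so reads near 2 close ends can enter more than once. For CRAC the authors deposited pooled coverage, deletions, a motif score and a combined p-value that is not adjusted. Here counts were tested with edgeR 4.0.16 (R 4.3.3) by quasi-likelihood after TMM scaling and filterByExpr, in 1 fit over the 8 total and polysomal libraries and 1 over the 6 3′ end libraries, with Benjamini-Hochberg adjustment over all genes at 0.05, and 3′ end usage with diffSpliceDGE and Simes p-values. DESeq2 1.42.0, RLE scaling, no filter, a replicate block and each replicate left out were alternatives. The tests were run on simulated data first. As a check on the replicate numbers, libraries with 1 number were compared after their group mean was taken off. The correlation was 0.285 to 0.534 in the 6 pairs of total and polysomal groups. In the 3′ end libraries it was 0.393, 0.645 and 0.505. Same-numbered libraries were therefore set side by side as pairs in the descriptions. The main tests held no term for the replicate number, which entered only in the replicate block. The genes and lists were chosen with earlier results of these data known. The text names genes with a CRAC site, the 5 with the smallest p in each direction whose groups did not overlap in each comparison (fewer are described where values are small), the 5 highest and lowest levels, the S18 paralogues, genes with separate 3′ ends and 5 genes of the neighbouring lists. Others, among them Mrps31, Mrpl57, Mrpl52, Gfm2 and Gtpbp10, were named after their values were seen.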

Additional observations from a re-analysis of the deposited data

How the results depend on the processing

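Counts of called genes in the set moved as follows with 1 library left out: 0 to 16 for polysomal against total RNA in control cells, 0 to 2 for the same in HuD cells, 0 to 5 for HuD against control in polysomal RNA and 0 to 2 for TE. The higher counts came without a control polysomal library, where the lone one left is assumed to vary like the other groups, so that the gap between the 2 no longer enters the spread. The replicate block added 1 call in 3′ end counts, Mrps6, and changed no other call in the set. Over all genes it moved the calls from 26 to 41 for polysomal against total RNA in control cells (2 higher and 65 lower by DESeq2, 996 and 1149 without the polysomal library of control replicate 1), from 7 higher and 73 lower to 150 and 266 for the same in HuD cells (66 and 174 by DESeq2), and from 2 and 3 to 100 and 117 in 3′ end counts (10 and 25 by DESeq2). With a combined p under 0.05 required in CRAC, 1 of the 6 windows of the set was left, and so 1 gene of 5. Of the windows in protein coding genes, 543 of 2606 were left. Among named genes signs turned in 5 cases, all TE changes far from the threshold: Mrps14 (−0.020 to 0.21 with 1 library left out, −0.0018 without the total library of control replicate 1), Mrpl32 (−0.25 to 0.12, 0.020 without the total library of HuD replicate 2) and Mrps5 (−0.20 to 0.032), where −0.020, 0.12 and 0.032 are without the polysomal library of control replicate 2. The median over the set also changed sign with 1 library left out: in polysomal against total RNA of control cells to 0.0097 without the polysomal library of control replicate 2 and 0.0018 without the total library of control replicate 1, in the same of HuD cells to −0.038 without the total library of HuD replicate 1 and −0.0033 without the polysomal library of HuD replicate 2, in TE to −0.019 without the total library of HuD replicate 1, and in 3′ end counts to 0.027 without control replicate 2 and 0.0033 without HuD replicate 1. The other causes were not tested. Of 608 values of named genes under other settings, 590 kept their direction and their side of the threshold. Most of these genes were named because their groups did not overlap in the same libraries, and almost none passed. The count was therefore largely fixed in advance and is no measure of robustness. RLE scaling, no filter and DESeq2 gave 0 calls in the set in each comparison of counts. The CRAC values have no replicate error.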
